A study of Homo sapiens with 4 samples.

Results

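The unfolded protein and ATF4 stress response was followed through 38 genes in RPE1 SunTag cells with and without TOP2B. The 38 genes come from a written list of endoplasmic reticulum (ER) chaperones, signalling components of the unfolded protein response and enzymes and transporters of the ATF4 amino acid response. The list rule used no measured value, but the list was drawn up with earlier results of these data known. They are 38 of the 60725 genes in the count table. All 38 had at least 10 reads in at least 2 libraries, as did 15356 genes of the table, and these 15356 genes were tested together.

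RPE1 SunTag is an hTERT-immortalized line of human retinal pigment epithelium that expresses the SunTag system, and the source study used it to ask how topoisomerase 2 beta (TOP2B) shapes contacts of the genome with the nuclear lamina. Both groups were the same line, grown in the same medium and transfected in suspension with 10 nM siRNA, again after 48 h, and harvested 72 h later on day 5. Cells of the 2 TOP2B knockdown libraries received the Dharmacon ON-TARGETplus SMARTpool against TOP2B, and those of the 2 control libraries Silencer Select Negative Control No. 2. Poly(A) RNA libraries were read, by the labels and the methods, as single-end 65-bp reads, although the names of the count columns bear a stranded, paired-end tag, and each group had 2 independent biological replicates. The control siRNA and the TOP2B pool differ in sequence, in number and in supplier, so a response to the siRNA and a response to loss of TOP2B cannot be told apart here, and only 1 cell line was measured.

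Total counts lay between 20310259 and 23887013 per library. Levels are given as CPM, the counts scaled to library size, and 1 CPM rests on 20.2 to 24 reads. In the knockdown libraries TOP2B itself was left at 9.58% of its control level. Of the markers of retinal pigment epithelium, RPE65 and TYR had 0 counts in each of the 4 libraries, which allows up to 3 counts, and RLBP1 had at most 1. The factors MITF (38.2 to 44.8 CPM) and OTX2 (11.2 to 13.4 CPM) and the culture markers KRT8 (853.5 to 1347.4 CPM) and VIM (937.6 to 1018.7 CPM) were expressed, and the leukocyte marker PTPRC had at most 7 counts.

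Misfolded proteins in the ER are sensed by 3 membrane proteins. IRE1 (gene ERN1) splices the messenger RNA of XBP1, PERK (gene EIF2AK3) phosphorylates the initiation factor eIF2alpha, and ATF6 is cut in the Golgi to release a transcription factor. XBP1 and ATF6 drive chaperones, folding enzymes and ER-associated degradation. Phosphorylated eIF2alpha lowers general translation but favours translation of ATF4, which drives genes for amino acid synthesis and import, and which other eIF2alpha kinases can also engage when amino acids, haem or mitochondrial function fail. Splicing of XBP1, translation of ATF4 and cleavage of ATF6 are not visible in counts per gene, so the values given here are transcript levels only.

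The promoters of these genes carry short sequences to which the factors are known to bind. In RefSeq windows from 250 bases before to 50 bases after the start of transcription (GRCh38.p14), 34 of the 38 genes had an entry, and SHMT2, PSPH, SLC7A11 and PDIA3 were not searched. The ER stress element ERSE, CCAAT and CCACG with 9 bases of any kind between them, is bound by ATF6 together with NF-Y, and it was present on either strand in 7 of the 34 genes and in 25 (0.0916%) of 27305 genes. Those 7 were CALR, CANX, CRELD2, HSP90B1, HSPA5, PDIA6 and XBP1. Its variant ERSE-II, ATTGG and CCACG with 1 base between them, was present in HERPUD1, HYOU1 and SDF2L1 and in 0.0696% of all genes. The XBP1 element, TGACGTGG, was found in HYOU1 (0.927% of all genes), where it overlaps an ERSE-II. The CARE element, TGATGNAA, to which ATF4 binds with C/EBP factors, was found in ASNS, ATF3, CHAC1, HERPUD1 and SLC3A2 (4.46% of all genes). These sites are printed because they belong to genes on which the comparison turns, with the searched letters in capitals and up to 5 flanking bases in lower case.
HSPA5 ERSE, chr9:125241386-125241414, minus strand: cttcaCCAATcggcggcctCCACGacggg
CALR ERSE, chr19:12938379-12938407, minus strand: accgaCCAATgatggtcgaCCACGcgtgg
XBP1 ERSE, chr22:28800598-28800626, minus strand: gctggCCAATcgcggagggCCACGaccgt
HYOU1 ERSE-II, chr11:119057269-119057289, plus strand: tactcATTGGaCCACGtccca
HYOU1 ERSE-II, chr11:119057375-119057395, plus strand: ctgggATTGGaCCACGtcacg
ASNS CARE, chr7:97872464-97872481, minus strand: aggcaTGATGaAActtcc
CHAC1 CARE, chr15:40953257-40953274, minus strand: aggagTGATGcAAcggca
A match of letters is a description and not evidence of binding, and a window without a match says only that these letters are not in it.

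In the TOP2B knockdown, 5 of 6 enzymes of serine, one-carbon and asparagine synthesis rose (PHGDH, PSPH, SHMT2, MTHFD2 and ASNS, but not PSAT1), while the transcription factors and most ER chaperones did not pass the test. At an adjusted p below 0.05 (edgeR's quasi-likelihood test, Benjamini-Hochberg adjustment over 15356 genes), 7 of the 38 genes were higher, against 6.66% of all tested genes, and 2 were lower, against 4.18%. The remaining 29 were not called, and whether the enzymes differ from the other genes in their change was not tested. In all, 23.7% of the 38 genes were called, against 10.8% of the tested genes. The median log2 fold change was 0.03 for the 38 genes and -0.0029 for all tested genes, with 22 values above 0 and 16 below, from -0.69 to 1.33. Both knockdown libraries lay above both control libraries for 12 of the 38 genes and below them for 5, which is true of 27.7% and 26.6% of all tested genes, respectively, and together of 54.3%. Fewer responding cells and less RNA per cell cannot be told apart in these bulk samples.

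**Figure D1:**
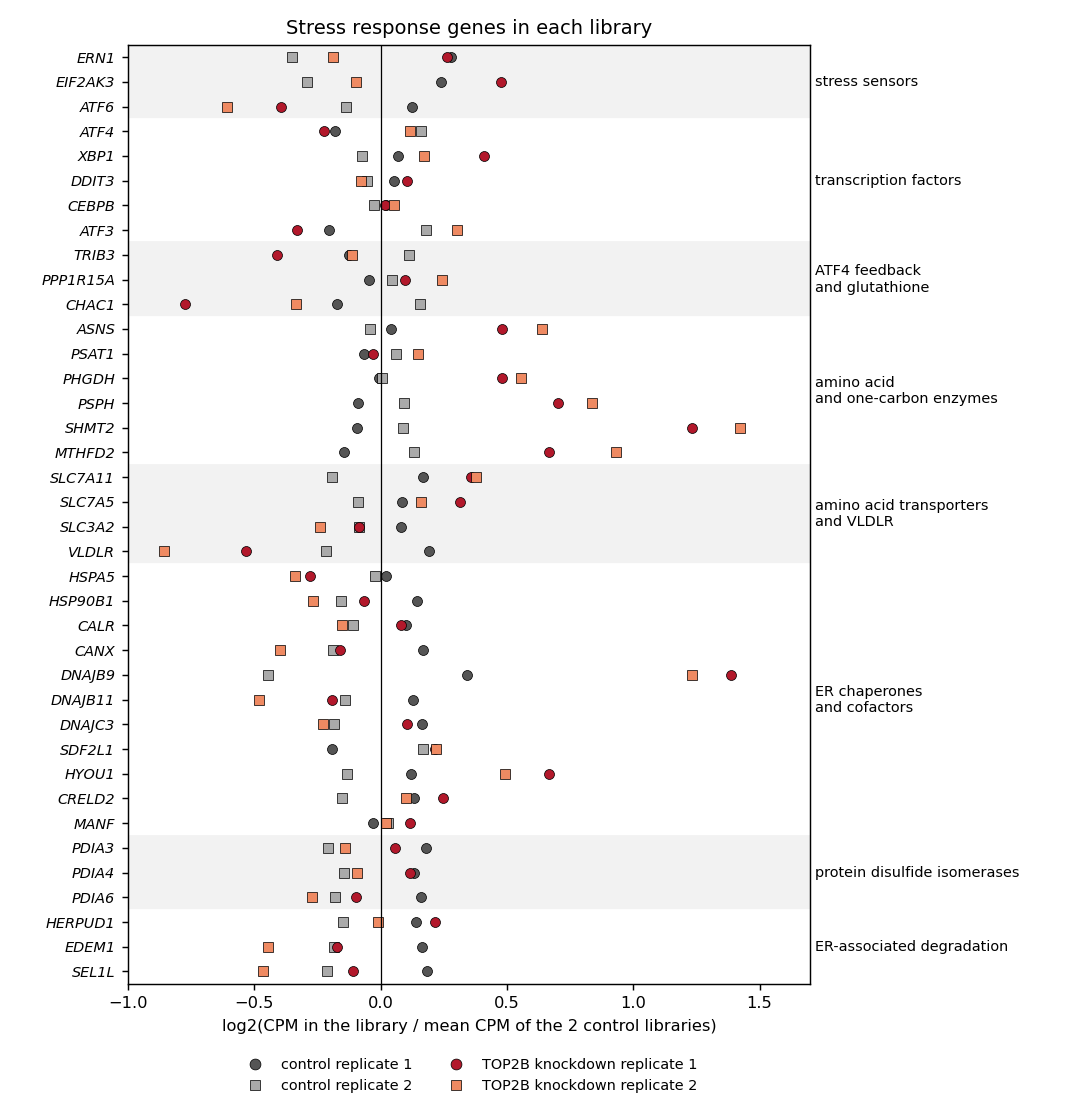
Level of each of the 38 genes in each library, as log2 of the CPM over the mean CPM of the 2 control libraries (x axis), with genes grouped by role (y axis); circles are replicate 1 and squares replicate 2, grey for control and red or orange for TOP2B knockdown. Both knockdown libraries of SHMT2, MTHFD2, PSPH, PHGDH, ASNS, DNAJB9 and HYOU1 sit to the right of both control libraries, and those of VLDLR and ATF6 to the left.

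Of the 6 enzymes of amino acid and one-carbon metabolism, 5 rose and 1 was not called, with a median log2 fold change of 0.66. Serine is made from a glycolytic intermediate by PHGDH, PSAT1 and PSPH in turn. PHGDH (chromosome 1 of GRCh38, 119648411 to 119744218), the first enzyme of this route, had 77.3 and 78.1 CPM in the control libraries and 108.4 and 114.2 CPM in the knockdown libraries. The groups did not overlap, and PHGDH rose by 0.52 on the log2 scale (standard error 0.11, adjusted p = 0.0199). PSAT1, the aminotransferase of the second step, had 72.6 and 79.2 CPM against 74.3 and 84.0 CPM. These ranges overlapped, and at a log2 fold change of 0.06 (95% interval -0.21 to 0.33, adjusted p = 0.806) PSAT1 was the one gene of the route that did not pass. PSPH (chromosome 7, 56011051 to 56051604), the phosphatase that releases serine, had 18.7 and 21.2 CPM against 32.4 and 35.5 CPM. Its log2 fold change was 0.77 (standard error 0.13, adjusted p = 0.00691), with both knockdown libraries above both controls.

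SHMT2 (chromosome 12, 57229573 to 57234935), the mitochondrial enzyme that moves a one-carbon unit from serine to folate, had 88.0 and 99.7 CPM in the control libraries and 220.2 and 251.5 CPM in the knockdown libraries. This is a 2.51-fold rise (95% interval 2.04 to 3.1), with a log2 fold change of 1.33, a standard error of 0.14 and an adjusted p of 0.000687. Of the exon bases of SHMT2, 8.38% are shared with genes on the other strand, NDUFA4L2 among them. MTHFD2 (chromosome 2, 74186172 to 74217565), which oxidizes the resulting folate in mitochondria, had 34.7 and 42.1 CPM against 60.9 and 73.2 CPM. Its log2 fold change was 0.80 (standard error 0.14, adjusted p = 0.00773), and the lowest knockdown value lay above the highest control value. Of its exon bases, 14.15% are shared with genes on the other strand, SLC4A5 among them. ASNS (chromosome 7, 97851677 to 97872542), asparagine synthetase and a classical ATF4 target, had 21.6 and 20.4 CPM against 29.3 and 32.7 CPM. Of the exon bases of ASNS, 49.33% are shared with a gene on the same strand that is not among the counted genes. The log2 fold change of ASNS was 0.56 (standard error 0.13, adjusted p = 0.0237).

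Replicate 2 was higher than replicate 1 in both groups for 5 of these 6 enzymes, as for 37.1% of all tested genes. This offset was smaller than the difference between the group means for SHMT2, MTHFD2, PSPH and PHGDH, and larger for PSAT1. SHMT2, MTHFD2 and PSPH passed the test in each of the 4 fits that left out 1 library. For ASNS the adjusted p in these fits ran from 0.0199 to 0.142, and it passed in 2 of 4, failing without control replicate 2 (0.0985) and without knockdown replicate 2 (0.142). PHGDH passed in 1 of 4, without knockdown replicate 1 (0.0461), and gave 0.0878, 0.0913 and 0.119 without control replicate 1, control replicate 2 and knockdown replicate 2. Over these 4 fits the log2 fold changes of ASNS and PHGDH stayed between 0.46 and 0.64.

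**Figure D2:**
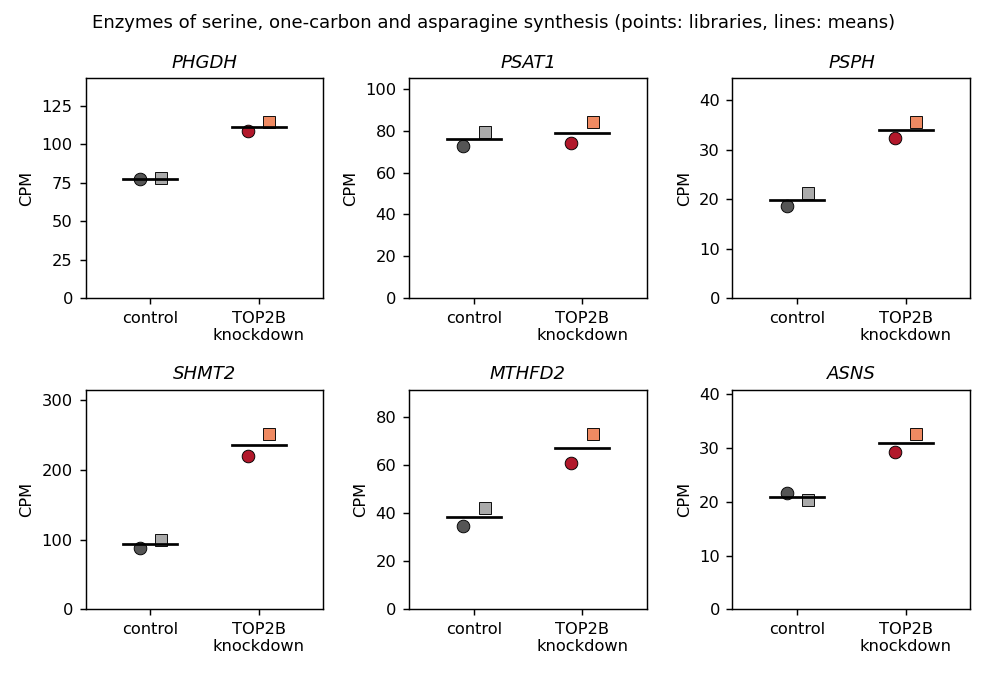
CPM (y axis, from 0) of the 6 enzymes of serine, one-carbon and asparagine synthesis in the 2 control and 2 TOP2B knockdown libraries (x axis); points are libraries, circles for replicate 1 and squares for replicate 2, and lines are group means. SHMT2 went from 88.0 and 99.7 to 220.2 and 251.5 CPM, while the 2 groups overlapped for PSAT1.

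None of the 5 transcription factors was called. ATF4, the factor that gives the amino acid response its name, had 161.0 and 204.1 CPM in the control libraries and 156.4 and 198.1 CPM in the knockdown libraries. The groups overlapped almost completely, with a log2 fold change of -0.04 (95% interval -0.40 to 0.32, adjusted p = 0.9). DDIT3, which encodes the pro-apoptotic factor CHOP, had 13.9, 12.9, 14.4 and 12.7 CPM in control replicates 1 and 2 and knockdown replicates 1 and 2 (log2 fold change 0.02, 95% interval -0.32 to 0.35). DDIT3 lies against MARS1 on the other strand, and 31.6% of its exon bases are shared with genes of the table. MARS1 itself rose by 0.59 on the log2 scale, and since it was not settled whether reads were assigned by strand, the DDIT3 value is uncertain.

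ATF3, an immediate stress factor, was low at 4.47 and 5.83 CPM against 4.10 and 6.35 CPM (log2 fold change 0.02, 95% interval -0.54 to 0.58). CEBPB, a partner of ATF4 on CARE elements, stayed between 30.8 and 32.6 CPM in all 4 libraries, with a 95% interval of -0.23 to 0.30. XBP1 had 31.7 and 28.7 CPM against 40.1 and 34.0 CPM. The knockdown libraries of XBP1 lay above the controls, and its log2 fold change of 0.29 (95% interval -0.00 to 0.59) did not pass after adjustment (adjusted p = 0.195). The 95% intervals given here are for each gene alone, without adjustment for the number of genes.

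Of the 3 stress sensors, ATF6 fell and the other 2 were not called. ATF6 (chromosome 1, 161766298 to 161977574) had 151.7 and 126.5 CPM in the control libraries and 105.8 and 91.3 CPM in the knockdown libraries. It fell by 0.50 on the log2 scale (standard error 0.14) with an adjusted p of 0.048, the closest to the threshold of the 9 called genes. With library size in place of normalization factors the adjusted p of ATF6 was 0.0514, with a filter at a mean of 100 counts it was 0.0653, and of the 4 fits without 1 library only that without control replicate 2 called it (0.025; the others gave 0.0507 to 0.268). ERN1 had the lowest level per length of the 38 genes in the control cells (1.12 CPM per kb), at 10.7 and 6.93 CPM against 10.6 and 7.74 CPM. EIF2AK3 had 18.2 and 12.6 CPM against 21.4 and 14.4 CPM. Replicate 1 exceeded replicate 2 in both groups for all 3 sensors, and for ERN1 and EIF2AK3 this offset was larger than the difference between the groups.

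The 3 genes of feedback and glutathione breakdown gave no call. TRIB3, a pseudokinase that restrains ATF4, had 27.5 and 32.4 CPM against 22.6 and 27.7 CPM (log2 fold change -0.25, adjusted p = 0.319). PPP1R15A, the phosphatase subunit that reverses eIF2alpha phosphorylation, had 163.1 and 174.1 CPM against 180.5 and 199.3 CPM, with a log2 fold change of 0.17 (adjusted p = 0.433). CHAC1, which breaks down glutathione and carries a CARE in its promoter, was low, at 3.22 and 4.04 CPM against 2.12 and 2.88 CPM. Both knockdown libraries of CHAC1 lay below the controls, while PPP1R15A lay above them, and the 95% interval for CHAC1 ran from -1.11 to 0.04 (log2 fold change -0.54, adjusted p = 0.222).

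Among the amino acid transporters and VLDLR, a lipoprotein receptor that ATF4 can drive, VLDLR fell and no transporter was called. VLDLR (chromosome 9, 2621182 to 2660056) had 51.1 and 38.6 CPM in the control libraries and 31.0 and 24.7 CPM in the knockdown libraries. It fell by 0.69 on the log2 scale (standard error 0.17, adjusted p = 0.0278), with no overlap between the groups. The call was lost with a filter at a mean of 100 counts (0.0502), without control replicate 1 (0.102) and without knockdown replicate 2 (0.0604). SLC7A11, the cystine importer, had 30.9 and 24.1 CPM against 35.2 and 35.7 CPM, above the controls but not past the threshold (log2 fold change 0.37, 95% interval 0.05 to 0.69, adjusted p = 0.135). SLC7A5, the large neutral amino acid transporter, and SLC3A2, the heavy chain that both transporters need, had log2 fold changes of 0.24 and -0.16 (adjusted p = 0.272 and 0.488).

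**Figure D3:**
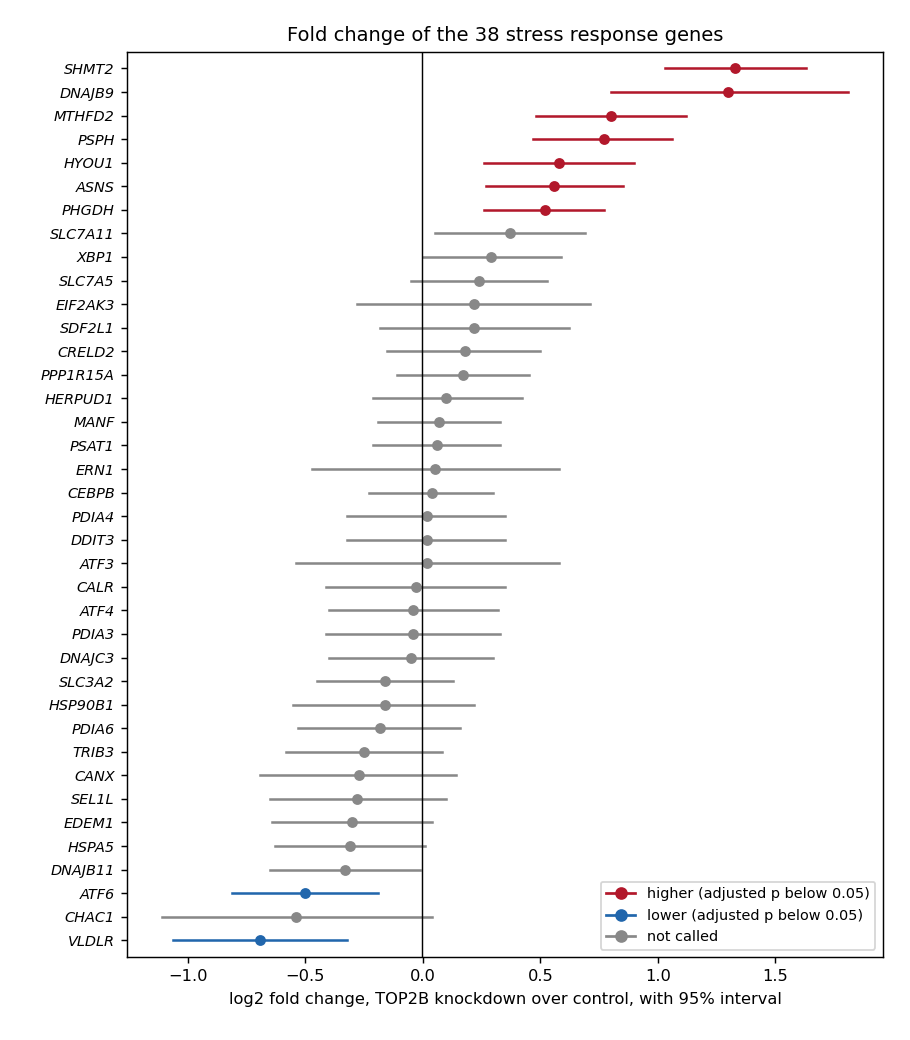
Log2 fold change of TOP2B knockdown over control (x axis) for each of the 38 genes (y axis), as points with 95% intervals for each gene alone; red marks genes called higher, blue genes called lower and grey genes not called, and the vertical line is the median of all tested genes. The 7 red genes run from 0.52 to 1.33, the 2 blue genes are at -0.50 and -0.69, and the intervals of SLC7A11 and DNAJB11 leave out 0 although their adjusted p did not pass.

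The 17 genes of the ER itself (11 chaperones and cofactors, 3 protein disulfide isomerases and 3 genes of ER-associated degradation) gave 2 calls, both higher, with a median log2 fold change of -0.04. This is 11.8% of them, close to the 10.8% of all tested genes. Their levels per kilobase of the canonical transcript spanned a wide range in the control cells. CALR was highest at 769 CPM per kb (714 and 825 in the 2 libraries), followed by HSP90B1 at 534 (479 and 590), CANX at 372 (326 and 418) and HSPA5 at 217 (214 and 221). These 4 ranges did not overlap. DNAJB9, at 3.13 CPM per kb (2.29 and 3.97), was the lowest of the 17.

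DNAJB9 (chromosome 7, 108569867 to 108574850), an ER DnaJ cofactor and a target of XBP1, had the largest rise among the ER genes. It had 9.56 and 5.53 CPM in the control libraries and 19.7 and 17.7 CPM in the knockdown libraries. The log2 fold change was 1.30 (standard error 0.23, adjusted p = 0.00705). The 2 control values were far apart, and the log2 fold change ran from 0.96 to 1.75 over the 4 fits without 1 library, in each of which it was called. HYOU1 (chromosome 11, 119044188 to 119057227), a large ER chaperone of the Hsp70 family with 2 ERSE-II sites in its promoter, had 201.2 and 168.8 CPM against 293.4 and 260.3 CPM. Its groups did not overlap (log2 fold change 0.58, standard error 0.14, adjusted p = 0.0293), but it was not called without control replicate 2 (0.238) or without knockdown replicate 1 (0.162).

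HSPA5 encodes BiP, the main ER Hsp70 and the most used readout of ER stress. It had 864.8 and 839.6 CPM in the control libraries and 702.4 and 673.9 CPM in the knockdown libraries. Both knockdown libraries lay below both controls, and the log2 fold change of -0.31 (95% interval -0.63 to 0.01) did not pass the threshold (adjusted p = 0.209). DNAJB11, a BiP cofactor, had 99.6 and 82.6 CPM against 79.8 and 65.2 CPM, also without overlap and not past the threshold (log2 fold change -0.33, adjusted p = 0.178).

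The calcium-binding chaperones CALR and CANX, which hold newly made glycoproteins, had log2 fold changes of -0.03 and -0.27 (95% intervals -0.41 to 0.35 and -0.69 to 0.14). HSP90B1, the ER Hsp90, had -0.16 (-0.55 to 0.22). SDF2L1 (0.22), CRELD2 (0.18) and MANF (0.07), genes known to be induced in ER stress, had adjusted p of 0.487, 0.492 and 0.755. SDF2L1 was at 7.01 and 8.99 CPM against 9.30 and 9.32 CPM, the knockdown libraries just above the controls. DNAJC3, an inhibitor of PERK and ER cofactor, had a log2 fold change of -0.05.

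The isomerases PDIA3, PDIA4 and PDIA6, which form and rearrange disulfide bonds, had log2 fold changes of -0.04, 0.02 and -0.18, none past the threshold and each with overlapping groups. For PDIA6, 25.22% of the exon bases are shared with ATP6V1C2 on the other strand. For the called genes HYOU1 and VLDLR, the shares with genes on the other strand are 9.77% and 8.24%. In ER-associated degradation, HERPUD1, a membrane organizer of the retrotranslocation complex, had 0.10, EDEM1, which trims the sugars of misfolded glycoproteins, had -0.30, and SEL1L, the adaptor of the ubiquitin ligase, had -0.28 (adjusted p = 0.69, 0.243 and 0.339). In 15 of the 17 ER genes replicate 1 exceeded replicate 2 in both groups, against 38.9% of all tested genes.

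**Figure D4:**
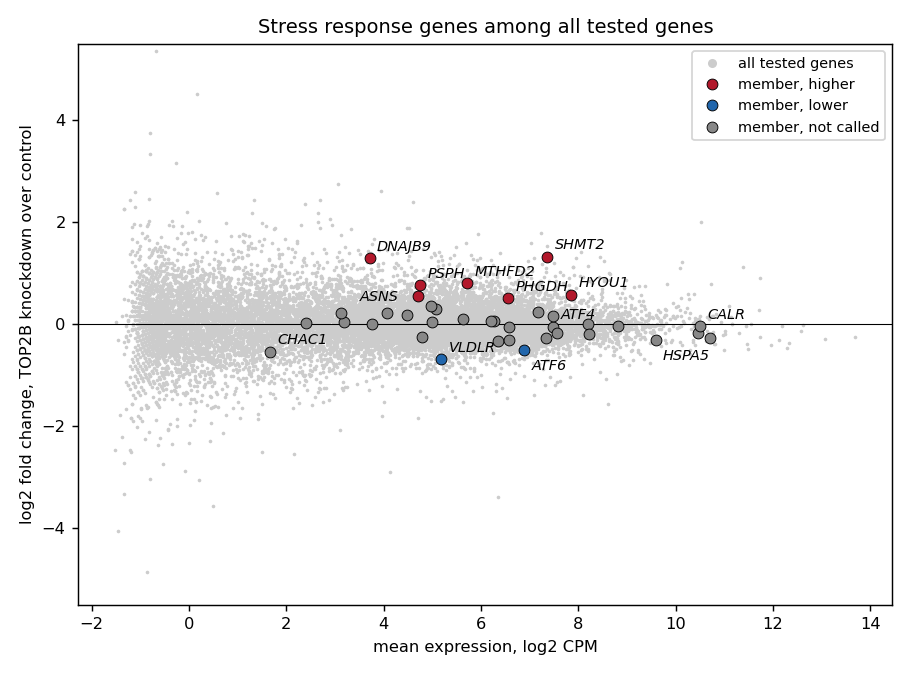
Mean expression (x axis, log2 CPM) and log2 fold change of TOP2B knockdown over control (y axis) for all 15356 tested genes in light grey and the 38 genes in red (called higher), blue (called lower) or dark grey (not called), with the called genes, ATF4, HSPA5, CALR and CHAC1 named. The dark grey points lie between -0.54 and 0.37, while SHMT2 and DNAJB9 are above 1.

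The promoter elements were set beside the fold changes as a description, with no test. Of all tested genes 10.8% were called, so the few genes with each element are too few to read a share of calls from. Of the 7 genes with an ERSE, none was called, and their log2 fold changes ran from -0.31 (HSPA5) to 0.29 (XBP1) with a median of -0.16. Of the 3 with an ERSE-II, HYOU1 rose, at 0.58, and HERPUD1 and SDF2L1 stood at 0.10 and 0.22. Of the 5 with a CARE, ASNS rose, at 0.56, and the others ranged from -0.54 (CHAC1) to 0.10 (HERPUD1).

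The word GCAACC in 3′ UTRs of GENCODE v44 canonical transcripts was also counted, because 39.3% of all genes called higher held it against 22.5% of genes not called and 19.8% of genes called lower. Of the 38 genes 10 held it (26.3%, against 23.6% of 12385 tested genes with an annotated 3′ UTR). They included 2 of the 7 higher genes, MTHFD2 and DNAJB9, and both lower genes, ATF6 and VLDLR. SHMT2, PSPH, PHGDH, ASNS and HYOU1 held none. Their 3′ UTRs were shorter, at 175 to 1405 bases, than those of MTHFD2, DNAJB9, ATF6 and VLDLR, at 1497 to 6188 bases. The shares given here were not adjusted for this length. Any part of this word in the values of these genes was not tested. Sites of the called genes follow, with the word in capitals.
MTHFD2, chr2:74214733-74214758, plus strand: gtattgattgGCAACCagatttatct
DNAJB9, chr7:108574203-108574228, plus strand: taatttctgtGCAACCttactatgtg
ATF6, chr1:161960393-161960418, plus strand: agaaattgtaGCAACCtctcaaggat
VLDLR, chr9:2659145-2659170, plus strand: gctcttcacaGCAACCctaataggta
MTHFD2 has 2 such sites, of which the first is shown, and the other 3 genes have 1 each.

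Further genes of the same pathways, outside the 38, were counted in the same fit. Among 23 tested further ATF4 response genes 4 were higher and 1 lower, with a median log2 fold change of 0.12. This is 21.7% called, beside 10.8% of all tested genes. JDP2, a basic leucine zipper repressor, rose by 1.42 on the log2 scale, from 2.63 and 2.24 CPM to 6.98 and 6.05 CPM (adjusted p = 0.00379). PCK2, a mitochondrial enzyme of gluconeogenesis, rose by 1.20 on the log2 scale (adjusted p = 0.00169), and SESN2 and NUPR1 by 0.62 and 0.54. DDIT4, an inhibitor of mTORC1, went the other way with 7.98 and 6.93 CPM against 3.92 and 3.52 CPM, and fell by 1.00 on the log2 scale (adjusted p = 0.0117). ALDH1L2, GDF15 and INHBE had at most 8 counts in a library and were not tested.

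Of 13 genes for eIF2alpha kinases, initiation factor subunits and phosphatase, EIF2B5 was higher (0.65) and EIF2B3 lower (-0.58). PDIA5 (0.70) was the sole call among 20 further ER folding genes, whose median was -0.06. Among 29 further genes of ER degradation and export, DERL3 (1.38) and SEC31A (1.11) were higher and EDEM3 (-0.78) and SRPRB (-0.44) lower, with a median of -0.13. Of 7 tested membrane-bound bZIP factors and their proteases, CREB3L2, an ATF6-like factor of the secretory pathway, was higher (log2 fold change 1.03, adjusted p = 0.00312), with 140.8 and 118.3 CPM against 292.7 and 238.2 CPM. These 5 lists together had 9 higher and 4 lower genes of 92 tested, or 14.1% called, beside 10.8% of all genes, and a median of -0.02.

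For stress responses outside the ER, 12 cytosolic heat shock genes gave 1 higher and 2 lower calls (25% called, beside 10.8% of all tested genes) with a median of -0.23. HSPB1, a small heat shock protein, rose from 138.2 and 163.8 CPM to 289.0 and 366.3 CPM (log2 fold change 1.12, adjusted p = 0.00278), and the near-identical copies HSPA1A and HSPA1B, between which reads are hard to assign, had -0.55 and -0.66. Of 20 cytosolic aminoacyl-tRNA synthetases, a group that ATF4 also regulates, VARS1 (1.30), QARS1 (0.99) and MARS1 (0.59) rose and 17 were not called (15% called), with a median of -0.06.

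**Figure D5:**
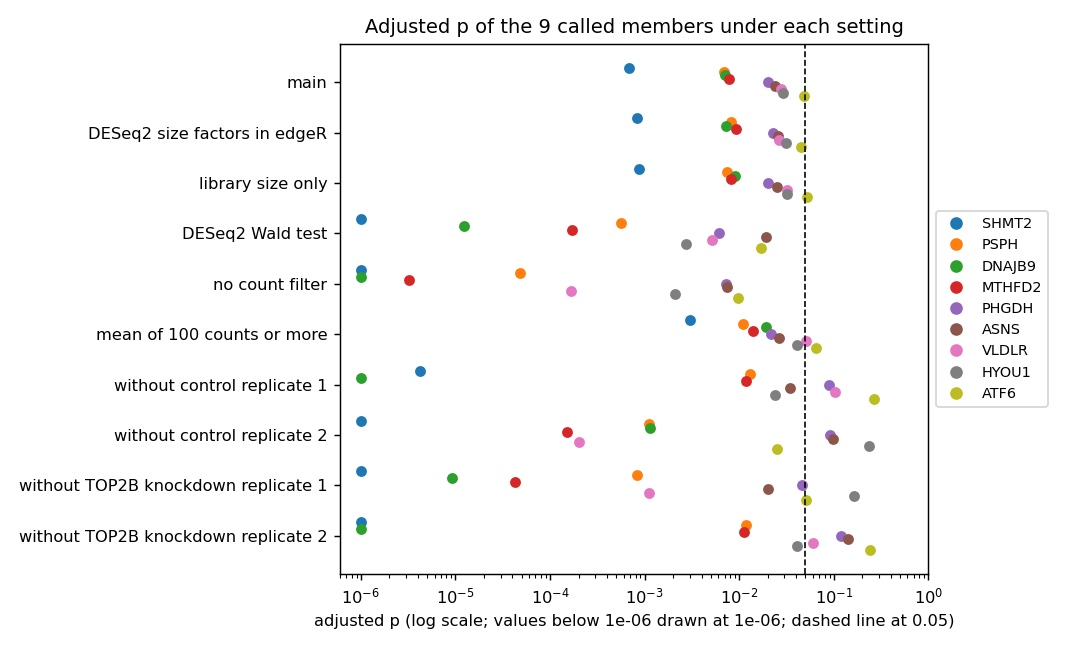
Adjusted p (x axis, log scale, with the dashed line at 0.05) of the 9 called genes under each setting of scaling, test, filter and left-out library (y axis), by edgeR's quasi-likelihood test except where DESeq2 is named; points below 1e-06 are drawn at 1e-06, and the replicate block is not drawn. SHMT2, PSPH, DNAJB9 and MTHFD2 lie left of the line in every setting drawn, and ATF6 has the largest number of points to the right of it.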

How the data were processed

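RNA-seq of 2 control and 2 TOP2B knockdown libraries was used. Per the labels and the methods of the study, the authors checked reads with FastQC 0.11.6, aligned them to GRCh38 with STAR 2.5.4a and counted them on Gencode v24 genes. The deposited values are raw counts per gene. The column names bear a tag for stranded, paired-end data, while the methods give single-end reads and, for the signal tracks of STAR, an unstranded setting. Which strand setting applied to the counts was not given in the sources used here. A further 4 repeated columns were not used. A gene entered the test when 2 or more libraries held 10 or more reads for it. TMM-normalized counts were fitted with condition alone by glmQLFit and glmQLFTest of edgeR 4.0.16 (limma 3.58.1, R 4.3.3), with p-values adjusted by Benjamini-Hochberg and a common dispersion of 0.0117. Every adjusted p comes from this test unless another setting is named. CPM values used TMM-scaled library sizes, and CPM per kb the canonical GENCODE v44 transcript, an annotation that held 98.9% of tested genes.

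The 38 genes and the other lists were chosen with earlier results of these data known. All 38 could be named, with at most 4 called genes of each other list by size of change, markers of cell type and TOP2B. NUPR1, which had the smallest change among the called further ATF4 response genes, was named besides these. Alternatives were size factors of DESeq2 in edgeR, library size alone, the Wald test of DESeq2 1.42.0, other count filters, a replicate block and fits without each library, which borrow the spread for a lone library from the other group. Named pseudogene copies held at most 0.747% of the counts of their gene. The edgeR fit was tested on simulated counts. Intervals and p-values cover counting error and the spread between these libraries. Some genes of the one-carbon lists are not reported here.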

Additional observations from a re-analysis of the deposited data

How the results depend on the processing

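Across size factors of DESeq2, library size alone, the DESeq2 Wald test, no count filter and a filter at a mean of 100 counts, 7 of the 38 genes were called higher each time. Of all genes tested in these settings, 4.61% (no count filter) to 7.57% (filter at 100 counts) were higher. The number called lower fell from 2 to 1 with library size alone and to 0 with the filter at 100 counts, beside 4.07% and 4.1% of all tested genes. Without a filter 985 of 29440 genes were lower (3.35%) against 642 of 15356 (4.18%). In fits without 1 library, 4 to 6 of the 38 genes were higher and 0 to 2 lower, while all genes gave 697 to 987 higher and 467 to 534 lower. The fewest higher genes, 4, came without control replicate 2. The median of the 38 genes ran from -0.041 to 0.086 in these fits. Signs turned within them for genes that were not called, namely ERN1 (-0.22 to 0.41), EIF2AK3 (-0.09 to 0.51), ATF4 (-0.24 to 0.14), DDIT3 (-0.07 to 0.09), ATF3 (-0.34 to 0.31), PSAT1 (-0.05 to 0.15), CALR (-0.15 to 0.08), DNAJC3 (-0.22 to 0.13), PDIA3 (-0.22 to 0.17), PDIA4 (-0.12 to 0.16) and HERPUD1 (-0.03 to 0.26). The cause was not tested. The replicate number marks no shared day or culture in the labels. Deviations of same-numbered libraries correlated across genes at 0.479, with only 2 pairs. With the replicate number as a block, 11 of the 38 genes were higher and 12 lower. Of all genes, 3440 (22.4%) were higher and 3346 (21.8%) lower in that fit. Genes not called in the main fit but lower with the block were HSPA5, HSP90B1, CANX, DNAJB11, PDIA6, EDEM1, SEL1L, TRIB3, CHAC1 and SLC3A2. Those higher only with the block were XBP1, PPP1R15A, SLC7A11 and SLC7A5. For HSPA5 the adjusted p of this quasi-likelihood fit was 3.40e-05. With 2 libraries per group, a gene that was not called may still differ.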

Other observations

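The rise of SHMT2 and MTHFD2 led to a look at other genes of folate-linked one-carbon metabolism, a list chosen after the values of the 38 genes were seen. Among the cytosolic genes, TYMS and SHMT1 were called higher by edgeR's quasi-likelihood test, as were 6.66% of all tested genes. TYMS, which makes thymidylate, had 39.2 and 44.2 CPM in the control libraries and 59.9 and 72.9 CPM in the knockdown libraries (log2 fold change 0.67, adjusted p = 0.0138). SHMT1, the cytosolic counterpart of SHMT2, had 0.54 (adjusted p = 0.0179). ALDH1L1 had 7 and 6 counts in the control and 22 and 23 in the knockdown libraries, so it entered the test only through the group in which it was higher, and no call is drawn from it. MTHFD1, at 145.0 and 154.8 CPM against 146.9 and 151.9 CPM, had -0.00. Of 9 mitochondrial genes outside the 38 none was called, with a median of 0.29. One of these 9, MTHFD1L, was also counted above with the further ATF4 response genes. MTHFD1L (0.32), MTHFD2L (0.44) and the carrier SLC25A32 (0.29) were each above the controls in both knockdown libraries. GLDC of the glycine cleavage system had -0.72 (adjusted p = 0.058). Both knockdown libraries lay above both controls for 5 of these 9 genes and below them for 2. The shares of all tested genes were 27.7% and 26.6%.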
